A study of Mus musculus with 8 samples.

Results

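The 9 genes described here mark arterial endothelium or belong to the Notch pathway: Sox17, Dll4, Hey1, Efnb2, Notch1, Notch4, Jag1, Jag2 and Bmx. They were taken by gene symbol from the deposited table, and all 9 stood on lines that held all 8 counts, among 17326 such lines. RNA was sequenced from sorted mouse kidney cells in 4 groups of 2 libraries each. The groups were endothelium from EMCN+/+ (wild-type) kidneys, endothelium from EMCN-/- (knockout) kidneys, podocytes from EMCN+/+ kidneys and podocytes from EMCN-/- kidneys. Emcn encodes endomucin, a sialomucin of the endothelial surface, and the study compared glomerular cells with and without it. The glomerulus is the filter of the kidney. Strain, age, sorting markers and how the allele was made are not given in the sources used here, and whether equally numbered libraries share an animal is not stated in the labels. The p-values therefore measure the spread between these libraries, which may be technical in part.

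Notch signalling passes between touching cells. A ligand on one cell (Dll4, Jag1 or Jag2) binds a receptor on its neighbour (Notch1 or Notch4), the receptor is cut by ADAM and gamma-secretase proteases, and its freed intracellular part joins the DNA-binding protein Rbpj to switch on targets such as Hey1. In vessels the pathway is known for setting arterial identity and for restraining sprouting. Sox17 is a transcription factor that acts upstream of Notch in arteries, Efnb2 is the membrane ligand ephrin-B2 that marks arterial cells, and Bmx is a non-receptor tyrosine kinase used as a marker of arterial endothelium.

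In mm10 (GRCm38), the build named in the submitters' processing notes, RefSeq placed the 9 genes on 7 chromosomes. Dll4 lies on chr2:119325784-119335666, Jag1 on chr2:137081451-137116520, Jag2 on chr12:112907803-112929812 and Efnb2 on chr8:8617235-8661242. Notch1 lies on chr2:26457902-26503822, Notch4 on chr17:34564286-34588543, Hey1 on chr3:8663359-8667038, Sox17 on chr1:4490928-4497426 and Bmx on chrX:164192842-164258193. Dll4 overlaps Gm14207, Hey1 overlaps LOC115489673, Notch1 overlaps 0610009E02Rik and Mir6996, Jag2 overlaps Mir6941 and Bmx overlaps Gm19251. The use of strand in counting is not given, so reads in those overlaps cannot be assigned with certainty.

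Promoter windows from RefSeq (GRCm38.p6, 250 bases before to 50 after the start, read on the gene's strand) matched 7 of the 9 genes. The 3 Notch ligands are shown because their levels split by cell type below, with Dll4 and Jag2 higher in endothelium and Jag1 overlapping between the cell types in knockout. Bmx is shown because it was the 1 gene with a match to the Rbpj core. Capitals mark TGGGAA, the core of the Rbpj motif. The Dll4 window is chr2:119325534-119325833 on the plus strand, and those of Jag1 (chr2:137116471-137116770), Jag2 (chr12:112929446-112929745) and Bmx (chrX:164258144-164258443) are on the minus strand.
Dll4: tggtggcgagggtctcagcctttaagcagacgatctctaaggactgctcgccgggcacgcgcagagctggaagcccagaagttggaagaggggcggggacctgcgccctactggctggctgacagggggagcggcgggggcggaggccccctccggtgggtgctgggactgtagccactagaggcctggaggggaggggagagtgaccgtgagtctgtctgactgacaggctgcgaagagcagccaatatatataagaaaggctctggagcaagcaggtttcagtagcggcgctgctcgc
Jag1: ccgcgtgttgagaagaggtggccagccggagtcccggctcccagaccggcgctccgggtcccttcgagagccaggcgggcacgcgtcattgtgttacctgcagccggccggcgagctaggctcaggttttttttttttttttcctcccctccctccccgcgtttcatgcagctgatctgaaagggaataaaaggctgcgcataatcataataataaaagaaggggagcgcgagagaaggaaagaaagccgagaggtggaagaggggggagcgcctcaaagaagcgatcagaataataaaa
Jag2: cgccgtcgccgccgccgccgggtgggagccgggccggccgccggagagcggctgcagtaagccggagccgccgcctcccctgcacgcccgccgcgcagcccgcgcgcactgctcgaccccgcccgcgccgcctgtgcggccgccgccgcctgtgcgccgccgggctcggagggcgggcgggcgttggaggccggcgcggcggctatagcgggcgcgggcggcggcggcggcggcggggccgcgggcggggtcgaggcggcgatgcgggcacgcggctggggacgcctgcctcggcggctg
Bmx: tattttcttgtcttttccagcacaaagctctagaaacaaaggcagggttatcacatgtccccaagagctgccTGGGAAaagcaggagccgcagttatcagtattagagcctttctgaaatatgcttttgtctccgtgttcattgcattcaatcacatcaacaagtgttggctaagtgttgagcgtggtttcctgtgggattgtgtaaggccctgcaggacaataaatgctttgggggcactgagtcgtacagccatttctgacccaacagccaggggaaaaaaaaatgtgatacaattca

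The windows differed in base composition. Their GC content ran from 44.7% in Bmx through 55.7% in Jag1 and 63.7% in Dll4 to 86.0% in Jag2, and 99.9% of all 32851 windows had a lower GC content than that of Jag2. The Jag2 window held 63 CpG sites, the Jag1 window 22, the Dll4 window 17 and the Bmx window 4, beside a median of 7 over all windows. Motifs were searched as fixed letters on both strands. TGGGAA was found in 1 of the 7 windows, that of Bmx, at -178 from the start, and in 25.6% of all windows. The longer Rbpj form GTGGGAA, which contains that core, was in 0 of the 7 and in 6.38% of all windows. The E-box CACGTG (7.15% of all windows), the SOX letters AACAAT (10.7%) and the ETS letters CCGGAA (14.9%) were each in 0 of the 7. A missing match says only that these letters are not in this window.

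The libraries held between 10478956 and 17386042 counts on complete lines, and 16477 genes passed edgeR's filter on low counts, all 9 of the genes described here among them. Levels are CPM, the usual count of a gene relative to its library's total, with those totals rescaled by edgeR's TMM factors. The targeted gene followed its labels: Emcn stood at 1972 and 1828 CPM in wild-type and 173 and 179 CPM in knockout endothelium. Of the endothelial markers, 19 of 20 were on complete lines and summed to between 12268 and 14985 CPM in the endothelium libraries against 929 to 1456 CPM in the podocyte libraries. Of the podocyte markers, 14 of 20 were complete and summed to between 11600 and 23861 CPM in podocyte against 1931 to 3154 CPM in endothelium libraries. The summed markers of each label were thus higher in its own sort than in the other, though single markers such as Cldn5 were not. Tubule markers (12 of 18 complete) summed to between 4310 and 20316 CPM in endothelium and between 10419 and 19296 CPM in podocytes. They exceeded the markers of the library's own label in replicate 3 of wild-type endothelium (20316 against 13022 CPM), replicate 3 of wild-type podocytes (19296 against 15958 CPM) and replicate 2 of knockout podocytes (16932 against 11600 CPM). Mitochondrial genes took between 10.09% and 26.16% of counts. In bulk RNA, fewer cells of a type and less RNA per cell cannot be told apart.

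The first comparison was of the 2 cell types, which shows where each gene is carried. In wild type, 8 of the 9 genes were higher in endothelium at an edgeR adjusted p under 0.05, where 4.26% of all 16477 genes were (8.99% passed in either direction). In knockout it was again 8 of the 9, where 4.28% of all genes were (10.4% in either direction). Jag1 was the exception in both. The log2 fold change was above 0 for 9 of the 9 in each genotype, as for 49.3% of all genes in each. An unadjusted p under 0.05 was reached by 9 of the 9 in wild type (19.6% of all genes) and 8 of the 9 in knockout (22.9%). The median log2 fold change of endothelium over podocytes was 2.59 over the 9 genes in wild type and 2.52 in knockout, beside -0.01 over all genes tested in each. Both endothelium libraries lay above both podocyte libraries for 9 of the 9 genes in wild type (21.2% of all genes) and for 8 of the 9 in knockout (27.3% of all genes). All 4 endothelium libraries lay above all 4 podocyte libraries for each of the 9 but Jag1. The wild-type count fell to 5 without replicate 2 and to 5 without replicate 3 of wild-type podocytes. The knockout count fell to 5 without replicate 2 of knockout endothelium and to 5 without replicate 2 of knockout podocytes.

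**Figure D1:**
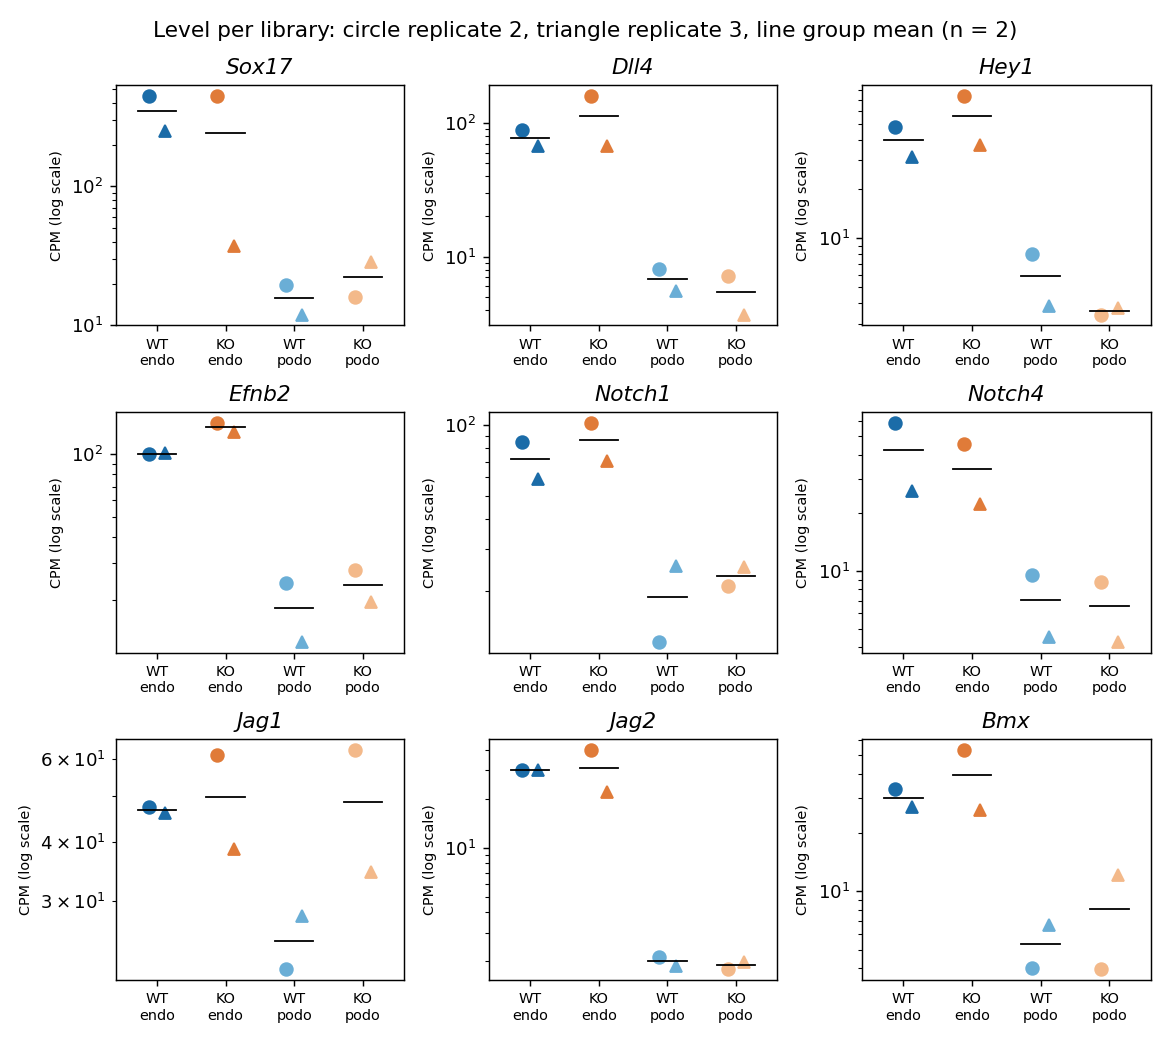
Level of each of the 9 genes in every library, as TMM-scaled CPM on a log axis, by group (WT wild type, KO knockout, endo endothelium, podo podocytes). Circles are replicate 2, triangles replicate 3 and lines the mean of 2 libraries. Endothelium lies above podocytes for every gene except Jag1 in knockout, and Sox17 falls to 37.0 CPM in 1 knockout endothelium library.

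Of the ligands, Dll4 encodes the delta-like ligand of arterial and sprouting endothelium. It stood at 87.8 and 66.7 CPM in wild-type endothelium (replicates 2 and 3), 159 and 67.8 CPM in knockout endothelium, 8.04 and 5.52 CPM in wild-type podocytes and 7.21 and 3.69 CPM in knockout podocytes. All 4 endothelium libraries were above all 4 podocyte libraries, and 1 knockout endothelium library was 2.35-fold above the other. Dll4 had a log2 fold change between the cell types of 3.51 (SE 0.46, edgeR adjusted p 0.000713) in wild type and 4.37 (SE 0.48, edgeR adjusted p 0.000258) in knockout.

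Jag2 is a jagged ligand found in arterial endothelium. Its level was 30.0 CPM in both wild-type endothelium libraries, 39.6 and 22.0 CPM in knockout endothelium, 2.14 and 1.89 CPM in wild-type podocytes and 1.80 and 1.99 CPM in knockout podocytes. The podocyte values came from 26 to 33 counts a library, and all 4 endothelium libraries lay above all 4 podocyte libraries. The log2 fold change of endothelium over podocytes was 3.89 (SE 0.38, edgeR adjusted p 0.000132) in wild type and 4.02 (SE 0.38, edgeR adjusted p 0.000125) in knockout.

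Jag1, the other jagged ligand, is made by many cell types, smooth muscle and kidney epithelium among them. It stood at 47.5 and 46.1 CPM in wild-type endothelium, 61.1 and 38.5 CPM in knockout endothelium, 21.5 and 27.9 CPM in wild-type podocytes and 62.5 and 34.5 CPM in knockout podocytes. The wild-type groups did not overlap, and the knockout groups did. In wild type the log2 fold change of endothelium over podocytes was 0.92 (SE 0.33), which did not pass over all genes (edgeR adjusted p 0.135) but passed at 0.019 when only the 4 wild-type libraries were fitted. In knockout it was 0.04 (SE 0.32, edgeR adjusted p 0.962), and it ran from -0.34 to 0.52 over the fits that each left out 1 library. The ratio of Jag1 to Dll4 CPM within a library was 0.38 to 0.69 in endothelium, and 2.68, 5.05, 8.67 and 9.36 in the podocyte libraries. The ratio of Jag1 to Jag2 was 1.54 to 1.75 in endothelium and 10.1 to 34.7 in podocytes. Both ratios separated the cell types without overlap, as the levels of Dll4 and Jag2 alone already did.

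Efnb2 stood at 99.8 and 102 CPM in wild-type endothelium, 141 and 128 CPM in knockout endothelium, 24.04 and 12.6 CPM in wild-type podocytes and 27.6 and 19.4 CPM in knockout podocytes. All 4 endothelium libraries lay above all 4 podocyte libraries. The log2 fold change of Efnb2 between the cell types was 2.46 (SE 0.32, edgeR adjusted p 0.000672) in wild type and 2.52 (SE 0.32, edgeR adjusted p 0.000652) in knockout.

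Of the receptors, Notch1 is carried by many cell types and Notch4 mainly by endothelium. Notch1 stood at 84.3 and 59.0 CPM in wild-type endothelium, 102 and 70.6 CPM in knockout endothelium, 12.2 and 25.5 CPM in wild-type podocytes and 21.0 and 25.2 CPM in knockout podocytes. Its log2 fold change of endothelium over podocytes was 1.93 (SE 0.36, edgeR adjusted p 0.00616) in wild type and 1.90 (SE 0.36, edgeR adjusted p 0.00684) in knockout. Among the 8 genes that passed, this was the smallest difference in each genotype. Notch4 stood at 58.7 and 25.8 CPM in wild-type endothelium, 45.6 and 22.4 CPM in knockout endothelium, 9.53 and 4.50 CPM in wild-type podocytes and 8.76 and 4.28 CPM in knockout podocytes. Replicate 2 lay above replicate 3 in each of the 4 groups, by 2.27, 2.04, 2.12 and 2.05-fold in that order. The log2 fold change of Notch4 between the cell types was 2.59 (SE 0.55, edgeR adjusted p 0.0134) in wild type and 2.38 (SE 0.55, edgeR adjusted p 0.0201) in knockout.

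Hey1, a transcriptional repressor and direct Notch target, stood at 47.7 and 31.6 CPM in wild-type endothelium, 74.2 and 37.1 CPM in knockout endothelium, 7.97 and 3.85 CPM in wild-type podocytes and 3.42 and 3.76 CPM in knockout podocytes. The endothelium and podocyte libraries did not overlap. Hey1 had a log2 fold change between the cell types of 2.74 (SE 0.44, edgeR adjusted p 0.00243) in wild type and 3.95 (SE 0.46, edgeR adjusted p 0.000408) in knockout. Bmx stood at 33.6 and 26.9 CPM in wild-type endothelium, 53.1 and 26.2 CPM in knockout endothelium, 4.02 and 6.68 CPM in wild-type podocytes and 3.98 and 12.1 CPM in knockout podocytes. Its log2 fold change was 2.50 (SE 0.53, edgeR adjusted p 0.0129) in wild type and 2.31 (SE 0.52, edgeR adjusted p 0.0176) in knockout.

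Sox17 had the highest mean CPM of the 9 in both endothelium groups and the widest replicate gap in knockout endothelium. It stood at 446 and 250 CPM in wild-type endothelium (5873 and 3448 counts), 448 and 37.0 CPM in knockout endothelium (6354 and 430 counts), 19.5 and 11.98 CPM in wild-type podocytes and 15.9 and 28.5 CPM in knockout podocytes. Replicate 3 of knockout endothelium thus lay nearer to the podocyte libraries than to the other 3 endothelium libraries. The log2 fold change of endothelium over podocytes was 4.46 (SE 0.92, edgeR adjusted p 0.0109) in wild type and 3.45 (SE 0.88, edgeR adjusted p 0.0311) in knockout. Without replicate 2 of knockout endothelium the knockout value was 0.73 (edgeR adjusted p 0.498).

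**Figure D2:**
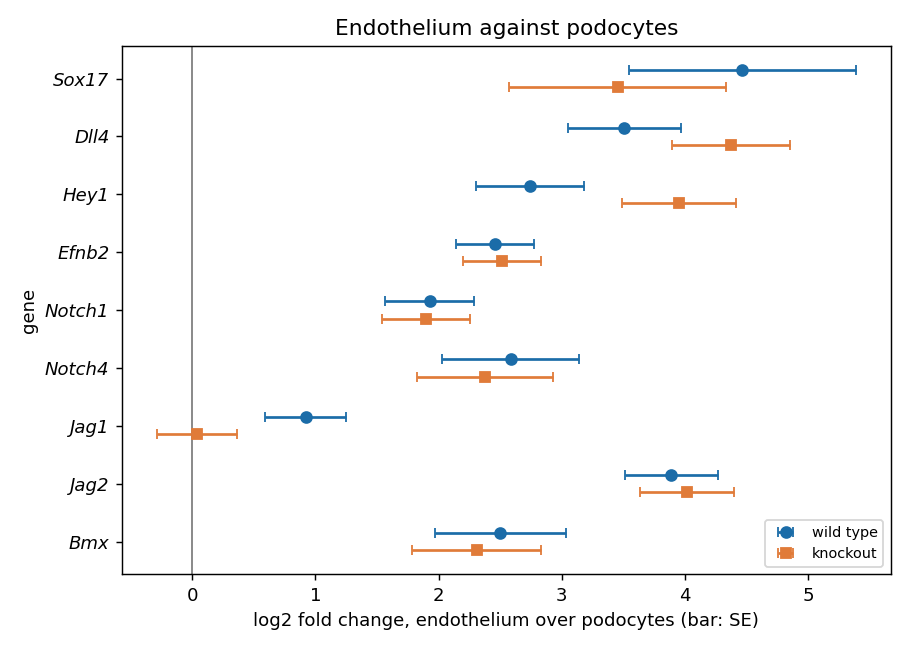
Log2 fold change of endothelium over podocytes for the 9 genes in wild type (circles) and knockout (squares), with bars of 1 standard error, from the edgeR fit of all 8 libraries. Values lie between 1.90 and 4.46 except those of Jag1, at 0.92 and 0.04.

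Endothelial markers were detected in the podocyte libraries, so the level of each gene there was set beside that of 18 endothelial markers (Emcn left out). In wild type the podocyte level of a marker was a median of 5.89% of its endothelium level. The markers lay between 2.96% (Egfl7) and 39.4% (Plvap), apart from Cldn5 at 294%. Sox17 (4.53%), Jag2 (6.71%) and Dll4 (8.77%) stood near that median, Hey1 (14.9%), Notch4 (16.6%), Bmx (17.7%) and Efnb2 (18.2%) above it, and Notch1 (26.3%) and Jag1 (52.8%) highest. In knockout the marker median was 5.07%. Dll4 stood at 4.79%, Jag2 at 6.15%, Hey1 at 6.45% and Sox17 at 9.15%, below Efnb2 (17.5%), Notch4 (19.2%), Bmx (20.3%), Notch1 (26.8%) and Jag1 (97.3%). The knockout share of Sox17 rests on an endothelium mean over 448 and 37.0 CPM, so 1 library sets it. The part that endothelial RNA in the podocyte sort has in these levels was not tested.

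Between genes, levels were compared per kilobase of the longest GENCODE transcript, as a description. In wild-type endothelium Sox17 came first at 107 ± 42.9 CPM per kb (SD, n = 2). Efnb2 (21.0 ± 0.26), Dll4 (20.6 ± 3.98) and Hey1 (16.4 ± 4.72) followed and did not differ from each other beyond their spread. Bmx (10.1 ± 1.57) was next, and Jag1 (8.34 ± 0.17), Notch1 (7.55 ± 1.89), Notch4 (6.41 ± 3.52) and Jag2 (5.87 ± 0.01) had the lowest means. Of these, Notch1 and Notch4 overlapped all the others and Bmx as well, and Jag1 met Bmx at the edge of its spread. In wild-type podocytes the values per kb ran from 0.39 ± 0.03 for Jag2 to 4.86 ± 1.64 for Sox17, with Jag1 (4.40 ± 0.80) and Efnb2 (3.82 ± 1.69) within the spread of Sox17. In knockout podocytes Jag1 was first at 8.64 ± 3.53 CPM per kb, within the spread of Sox17 at 6.84 ± 2.74. The order depended on the length used. Per kilobase of the median transcript, the group means in wild-type endothelium were 231 for Sox17, 177 for Notch1, 67.0 for Notch4, 42.1 for Hey1, 40.6 for Jag2, 35.7 for Efnb2, 34.8 for Dll4, 13.2 for Jag1 and 11.1 for Bmx. On that scale Notch1 was first in knockout podocytes, at 56.9 against 14.7 for Sox17 and 13.7 for Jag1.

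Other genes of the pathway were read from lists. Of 7 tested ligands and receptors outside the 9, 1 was higher in wild-type endothelium (4.26% of all genes were) and 1 in wild-type podocytes (4.73%). The first was Dlk1, a non-canonical delta-like protein (log2 fold change 3.59, SE 0.70, edgeR adjusted p 0.00806), and the second was the receptor Notch2 (-1.77, SE 0.23, edgeR adjusted p 0.000746). Notch2 stood at 24.8 and 20.6 CPM in wild-type endothelium and 85.8 and 69.3 CPM in wild-type podocytes. The receptors were thus carried unequally, with Notch1 and Notch4 higher in endothelium and Notch2 higher in podocytes. In knockout, where 6.09% of all genes were higher in podocytes, the same 2 genes passed, with log2 fold changes of 4.47 for Dlk1 and -1.52 for Notch2 (edgeR adjusted p 0.00334 and 0.00199).

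Of 13 tested genes that process or glycosylate Notch, 2 were higher in wild-type endothelium (4.26% of all genes were) and 0 lower (4.73%). Mfng, a fringe enzyme that adds a sugar to Notch and alters which ligand it prefers, was higher by 4.59 (SE 0.33, edgeR adjusted p 4.16e-05). Eogt, another glycosyltransferase acting on Notch, was higher by 2.25 (SE 0.30, edgeR adjusted p 0.000821). Of 24 nuclear factors and regulators, 1 was higher in wild-type endothelium (4.26% of all genes were) and 2 lower (4.73%). Numb, an inhibitor of Notch, was higher by 1.86 (SE 0.26, edgeR adjusted p 0.000932). The lower ones were the coactivator Maml3 at -1.51 (SE 0.31, edgeR adjusted p 0.0102) and the ubiquitin ligase Mib2 at -0.80 (SE 0.22, edgeR adjusted p 0.0451). Of 6 further targets, 1 passed (8.99% of all genes did in either direction), Snai2, a transcription factor, at 2.05 (SE 0.41, edgeR adjusted p 0.00882). In knockout 3 of the 6 passed (10.4% of all genes did). Hey2 was also higher in endothelium, at 1.81 (SE 0.47, edgeR adjusted p 0.0336), and Heyl lower, at -2.03 (SE 0.46, edgeR adjusted p 0.0175). Hey1, Hey2 and Heyl are relatives, and only Heyl was lower in endothelium among these 3. These counts rested on few libraries. Of the targets, 0 passed in wild type without replicate 2 of wild-type endothelium or without either wild-type podocyte library, and in knockout 1 passed without replicate 2 of knockout endothelium or of knockout podocytes, and 2 without replicate 3 of either (3 with all). Of the nuclear regulators, 1 passed in wild type without either wild-type endothelium library or without replicate 2 of wild-type podocytes, and 5 without either knockout podocyte library (3 with all).

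Tested arterial genes outside the 9 were mostly higher in endothelium too, but so were tested genes of veins and other beds. Of 30 listed arterial genes, 7 were on lines with fewer than 8 counts and not analysed here, Gja4 and Gja5 among them. The same held for 4 of 14 listed genes of veins and other beds, Nr2f2 among them. Of 23 tested arterial genes, 14 were higher in wild-type endothelium (4.26% of all genes were) and 1 lower (4.73% of all genes were), with a median log2 fold change of 2.52. Sox18 (4.89, edgeR adjusted p 3.57e-05) and Sox7 (4.79, edgeR adjusted p 4.85e-05), the close relatives of Sox17, led the list, followed by Stmn2 (4.30) and Fbln2 (4.27). The lower one was the chemokine Cxcl12, at -1.98 (edgeR adjusted p 0.00145). Of 9 tested genes of veins and other beds, 6 were higher in endothelium and 0 lower, with a median of 2.01. Among these 6 were Lrg1 (3.74), Jam2 (3.58), Flt4 (3.56) and Aplnr (2.83). Without replicate 2 of wild-type podocytes, 4 of the 9 passed.

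The comparison of genotypes asked whether loss of endomucin went with a change in these genes. In endothelium 0 of the 9 passed the edgeR threshold, where 0.00607% of all genes (1 gene, Emcn) did. An unadjusted p under 0.05 was reached by 0 of the 9, where 5.49% of all genes reached it. With total counts as library size, 1 of the 9 reached it, as did 1002 of 16477 genes. At the adjusted threshold DESeq2 and limma voom also called 0 of the 9. In the edgeR fit with TMM, 7 of the 9 were higher and 2 lower in knockout (50.3% of all genes were higher). The median log2 fold change was 0.27 beside 0.01 over all genes. The 7 values above 0 ran from 0.04 for Jag2 to 0.56 (SE 0.41) for Dll4, and Notch4 (-0.31, SE 0.52) and Sox17 (-0.52, SE 0.79) were below 0. The smallest adjusted p of the 9 was 0.727. Beside these, 15 of 19 endothelial markers were above 0 in the same comparison (median 0.22), 12 of 14 podocyte markers were below 0 (median -0.38) and 9 of 12 tubule markers were below 0 (median -0.81). Of the smooth muscle and mesangial markers 8 of 11 were above 0 (median 0.53), and of the immune markers 6 of 7 (median 0.47). Their part in the values of the 9 genes was not tested. In 1 gene, Efnb2, both knockout libraries lay above both wild-type ones (24.8% of all genes were so placed), with a log2 fold change of 0.42 (SE 0.30). In 0 of the 9 did both lie below (19.7% of all genes).

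**Figure D3:**
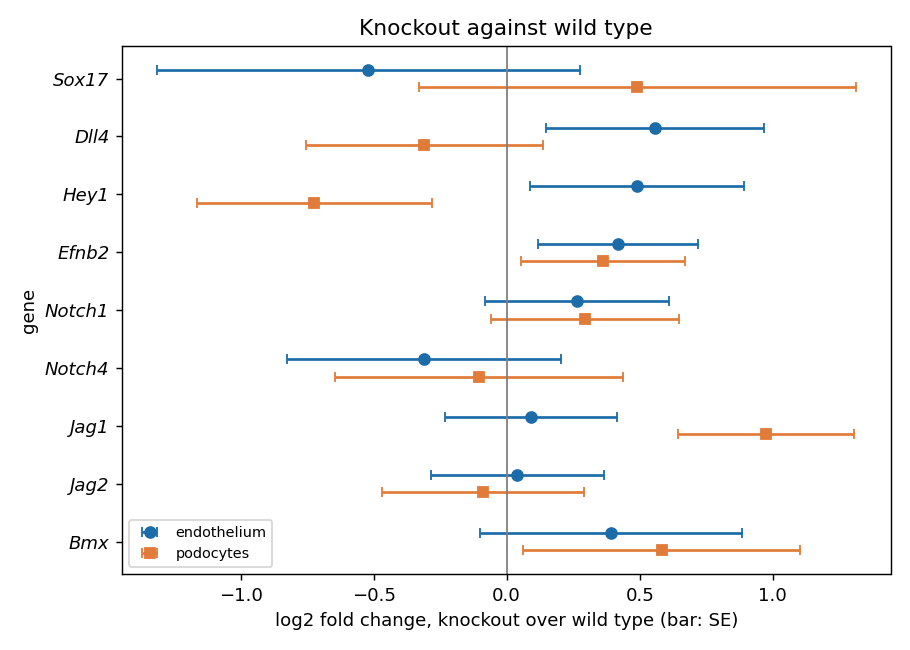
Log2 fold change of knockout over wild type for the 9 genes in endothelium (circles) and podocytes (squares), with bars of 1 standard error, from the edgeR fit of all 8 libraries. The points lie between -0.72 (Hey1 in podocytes) and 0.97 (Jag1 in podocytes), and no gene passed the adjusted threshold in either cell type.

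The direction in endothelium depended on which knockout library was used. Without replicate 3 of knockout endothelium, 9 of the 9 genes were higher in knockout, with a median log2 fold change of 0.48. Without replicate 2, 1 of the 9 was higher, Efnb2, and the median was -0.21. Dll4 moved from 1.04 (edgeR adjusted p 0.674) to -0.20 (0.984) between these fits, Hey1 from 0.90 to -0.10 and Bmx from 0.80 to -0.21. Sox17 moved from 0.36 to -3.24, the latter with an unadjusted p of 8.0e-05 and an edgeR adjusted p of 0.191. In these fits the lone knockout library was assumed to vary like the libraries of the other groups. Against the wild-type library of the same number, 8 of the 9 genes were higher in replicate 2 of knockout endothelium (median log2 difference 0.40, with 50.6% of all genes higher) and 4 of the 9 in replicate 3 (median -0.04, with 49.5% of all genes higher). The all-gene medians were 0.01 and -0.01, and Sox17, 1 of the 8, stood at 448 against 446 CPM.

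**Figure D4:**
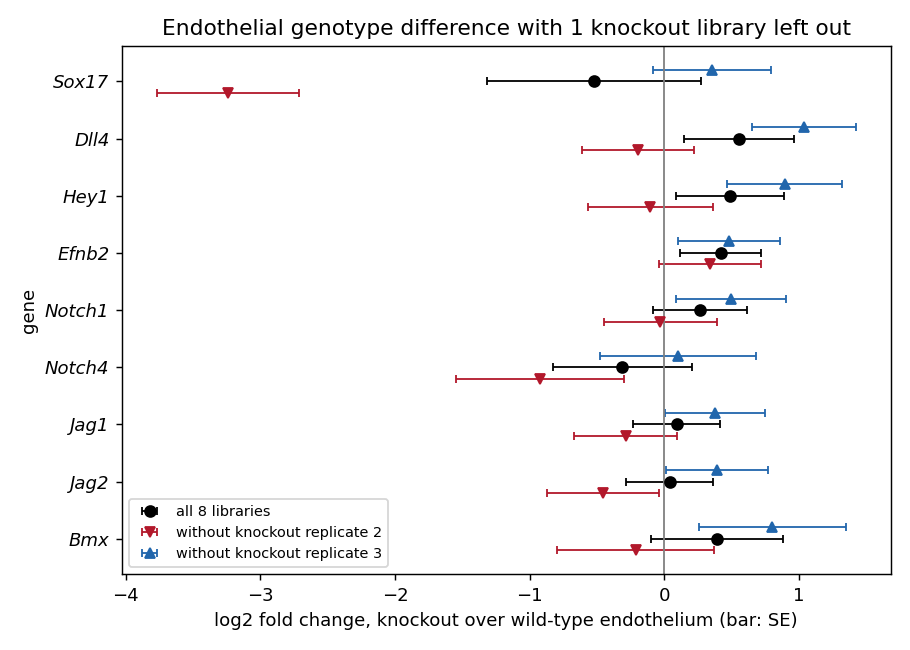
Log2 fold change of knockout over wild-type endothelium for the 9 genes with all 8 libraries (black circles), without knockout replicate 2 (red triangles pointing down) and without knockout replicate 3 (blue triangles pointing up), with bars of 1 standard error. Without replicate 3 all 9 values are above 0, and without replicate 2 only Efnb2, at 0.34, is.

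The gap between the 2 knockout endothelium libraries was examined gene by gene. All 9 genes were lower in replicate 3 than in replicate 2, where 53.4% of all genes were, with a median difference in log2 CPM of -0.998 beside -0.04 over all genes. The median absolute difference over all genes was 0.34. Sox17 differed by -3.59 on the log2 CPM scale, or 12.1-fold in CPM, a gap exceeded by 6 of 16477 genes (0.0364%). Dll4 differed by -1.23, a gap exceeded by 7.13% of genes, and Notch4 (-1.02), Bmx (-1.01) and Hey1 (-0.998) by gaps that 11.3% to 12% exceeded. Efnb2 had the smallest gap of the 9, at -0.14. Of the 6 genes with a larger gap than Sox17, Plvap, which encodes the diaphragm protein of endothelial fenestrae and caveolae, was the most abundant, with 15181 counts in replicate 2 and 798 in replicate 3 (it was singled out after its values were seen).

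**Figure D5:**
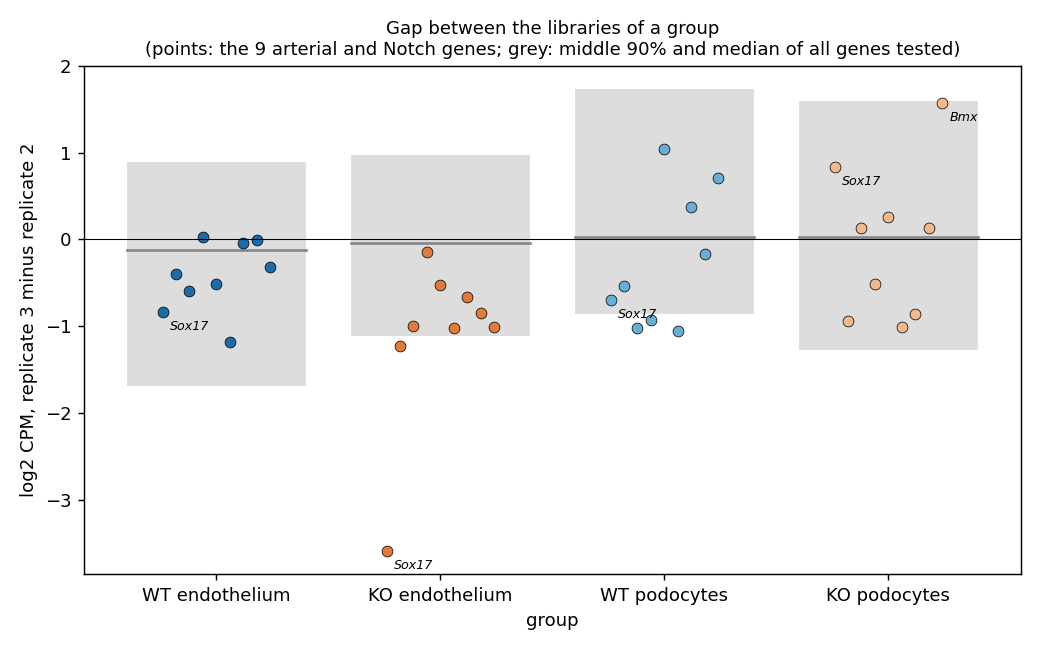
Difference in log2 CPM between replicate 3 and replicate 2 of each group, with 1 point for each of the 9 genes, a grey band for the middle 90% of all genes tested and a grey line for their median. In knockout endothelium all 9 points lie below 0 and Sox17 lies far below the band, at -3.59.

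Genes of other vessels differed between the same 2 libraries. Of the 23 other arterial genes, 22 were lower in replicate 3 (median -0.66 on the log2 CPM scale), the exception being Clu. So were 9 of 9 genes of veins and other beds (median -1.002). Of 19 endothelial markers, 16 were lower and 3 higher, with a median of -0.29. Their largest drop was that of Plvap (-3.96). Their largest rise was that of Ehd3 (0.11), which marks glomerular endothelium, at 2918 and 3146 CPM (it was named after its values were seen). Plvap is also in the list of veins and other beds and Sox18 in the arterial one, so these lists are not independent. The sum of the endothelial markers was 12268 to 14930 CPM in these 2 libraries. All 11 smooth muscle and mesangial markers on complete lines were lower in replicate 3 (median -0.56), while their defining members Acta2, Myh11 and Pdgfrb were on short lines and not analysed here. Summed tubule markers were 4310 CPM in replicate 2 and 9664 CPM in replicate 3, and the mitochondrial share of counts was 10.09% and 19.55%. The part these markers and the mitochondrial share have in the gap of the 9 genes was not tested. In wild-type endothelium 8 of the 9 genes were also lower in replicate 3 (58.2% of all genes were), with a median of -0.40, and Jag2, Efnb2 and Jag1 differed by 0.00, 0.03 and -0.04. In podocytes 6 of the 9 were lower in replicate 3 in wild type (47.48% of all genes were) and 4 of the 9 in knockout (48.55%).

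In podocytes 0 of the 9 genes passed the edgeR threshold by genotype, where 0.00607% of all genes (1 gene, Emcn) did, and 1 of the 9 had an unadjusted p under 0.05, where 4.43% of all genes did. DESeq2 and limma voom also called 0 of the 9. That gene was Jag1, with both knockout libraries (62.5 and 34.5 CPM) above both wild-type ones (21.5 and 27.9 CPM), as 15.1% of all genes were. Its log2 fold change was 0.97 (SE 0.33, unadjusted p 0.0137, edgeR adjusted p 0.978). It was 0.48 without replicate 2 of knockout podocytes and 1.34 without replicate 3, and was above 0 in each fit that left out 1 library. The summed smooth muscle and mesangial markers were 1007 and 1035 CPM in the wild-type podocyte libraries, and 1423 (replicate 2) and 561 CPM (replicate 3) in the knockout ones. The sum was thus highest and lowest in the 2 knockout libraries, with Itga8 at 455 and 110 CPM in them. Gene by gene, 8 of the 11 markers were above 0 and 3 below in knockout podocytes (median 0.63), and 3 of the 11 had an unadjusted p under 0.05. Heyl, Rgs5 and Cspg4, picked after their values were seen, were higher in both knockout libraries than in both wild-type ones. Others overlapped, such as Notch3 and Ren1, and Ren1 differed 57.3-fold between the wild-type podocyte libraries. All 14 podocyte markers were below 0 (median -0.59). Of 12 tubule markers, 8 were above 0 and 4 below (median 0.37). Their part in the Jag1 difference was not tested.

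Hey1 was the 1 gene of the 9 whose knockout podocyte libraries both lay below the wild-type ones (16.0% of all genes were so placed), at -0.72 (SE 0.44, edgeR adjusted p 0.978). With 1 library left out, this value ran from -1.15 to -0.08. The remaining 7 genes overlapped between genotypes in podocytes, with log2 fold changes between -0.31 for Dll4 and 0.58 for Bmx. Of the 9, 5 were above 0 (52.2% of all genes were), with a median of 0.29 beside 0.02 over all genes. Without replicate 3 of wild-type podocytes 4 of the 9 were above 0, with a median of -0.03 beside 0.08 over all genes. The median was 0.27 without replicate 2 of wild-type podocytes, and 0.08 without replicate 2 or without replicate 3 of knockout podocytes. Of the 6 other targets, 2 had an unadjusted p under 0.05 in podocytes (4.43% of all genes did), in opposite directions. Snai2 was at -0.96 (unadjusted p 0.0393). Heyl had the smallest p, with 12.8 and 17.4 CPM in wild type and 54.4 and 19.4 CPM in knockout (1.29, SE 0.45, unadjusted p 0.0153, edgeR adjusted p 0.978). Heyl is also one of the smooth muscle and mesangial markers, and its high library was the same one. Rbpj, the DNA-binding partner of Notch, had a log2 fold change of -0.57 (SE 0.26, unadjusted p 0.0526) in knockout podocytes and -0.29 (SE 0.26) in knockout endothelium, and neither passed.

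In the other Notch and arterial lists and the list of veins and other beds, 0 genes passed by genotype in either cell type. In endothelium 1 of the 23 other arterial genes had an unadjusted p under 0.05 (5.49% of all genes did), Igfbp3, a secreted binding protein of insulin-like growth factors, at 1.05 (SE 0.47, edgeR adjusted p 0.716). In podocytes 4 of the 23 had one (4.43% of all genes did), with the smallest p for Eln, which encodes elastin, at 1.14 (SE 0.32, unadjusted p 0.00493, edgeR adjusted p 0.978) and Depp1 at 0.90 (SE 0.30, unadjusted p 0.0124). Of the 13 processing and glycosylation genes, 3 were above 0 in knockout endothelium (50.3% of all genes were) and 2 in knockout podocytes (52.2%). Their medians were -0.14 and -0.25, beside 0.01 and 0.02 over all genes, and 0 had an unadjusted p under 0.05 in either.

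Whether the genotype log2 fold change differed between endothelium and podocytes (endothelium minus podocytes) was tested as an interaction. It passed for 0 of the 9 genes and for 0 of all genes (0%). An unadjusted p under 0.05 was reached by 0 of the 9, where 2.60% of all genes reached it. With a block on the replicate number, 2 of the 9 reached it, as did 546 of 16477 genes. At the adjusted threshold DESeq2 and limma voom called 0 of the 9. The value was above 0 for 4 of the 9 (47.4% of all genes). Hey1 (1.21, SE 0.60, unadjusted p 0.0686) and Jag1 (-0.88, SE 0.46, unadjusted p 0.0834) had the smallest p of the 9. With 1 library left out, these values ran from 0.58 to 1.63 for Hey1 and from -1.26 to -0.40 for Jag1. Hey1 was higher in knockout endothelium and lower in knockout podocytes, at 0.49 and -0.72, and Jag1 stood at 0.09 and 0.97. The edgeR adjusted p was 1 for each, so neither difference passed.

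The Pearson correlation of log2 CPM was between 0.80 and 0.98 for the 28 pairs that did not include Jag1 and between 0.41 and 0.62 for the 8 that did, over 8 libraries that share 2 cell types and their depths. The genes most like each in this measure were Bst2 for Dll4 (0.998), Pltp for Jag2 (0.998), Cdh13 for Jag1 (0.989), Cdc42ep4 for Efnb2 (0.997), Prune2 for Notch1 (0.996), Prickle1 for Notch4 (0.992), Rgs3 for Hey1 (0.997), Or10al2 for Sox17 (0.980) and D130046C19Rik for Bmx (0.987). Next came Vegfc for Dll4 (0.996), Fes for Jag2 (0.997), Sparcl1 for Jag1 (0.975), Inka1 for Efnb2 (0.995), Heg1 for Notch1 (0.991), Hycc1 for Notch4 (0.992), Lims2 for Hey1 (0.992), Dok4 for Sox17 (0.976) and Prc1 for Bmx (0.984). These are descriptions over 8 libraries.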

How the data were processed

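Polyadenylated RNA of sorted kidney cells was sequenced from TruSeq libraries, per the labels' protocols. The authors deposited 1 table of raw counts per Entrez gene for the 8 libraries, with 1 column per alignment file, per the file headers. The submitters' processing notes name mm10 and DESeq2. The aligner, counter and use of strand are not given in the sources used here. Of 22533 gene lines, 5207 (23.11%) have a comma in the description and fewer than 8 counts and were left out. All 8 columns were used as counts on the complete lines. The 9 genes and all lists were chosen with earlier results of these data known.

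Counts were fitted with edgeR 4.0.16 in R 4.3.3 (filterByExpr, TMM, 1 mean per group, all 8 libraries, quasi-likelihood F test). P-values were Benjamini-Hochberg adjusted over 16477 genes, with a threshold of 0.05. Standard errors are the log2 fold change divided by the root of F. Log2 CPM used a prior count of 2. Alternatives used DESeq2 1.42.0, limma 3.58.1, other scalings and filters, a block on the replicate number and each library left out. Transcript lengths came from GENCODE M21. The test was checked on simulated data. Named genes were the 9, Emcn, a set of cell-type markers and the 2 genes most correlated with each of the 9. Up to 4 list members per direction past the threshold (or the 2 of smallest p) were also named. Not all are printed. Clu, Cldn5, Cspg4, Egfl7, Ehd3, Itga8, Plvap and Rgs5 were named after their values were seen.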

Additional observations from a re-analysis of the deposited data

How the results depend on the processing

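No genotype or interaction result for the 9 genes passed the threshold under any alternative run. Over all genes, the genotype count in endothelium was 1, against 0 with total counts as library size, 0 with a mean of at least 5 CPM, 10 with DESeq2 and 0 to 1 with 1 library left out. In podocytes it was 1, against 0 with total counts, limma voom, at least 5 CPM or only the 4 libraries compared, 12 with DESeq2 and 0 to 1 with 1 library left out. With 1 library left out, 5 to 8 of the 9 genes and 769 to 1672 of all genes passed between cell types in wild type (8 and 1481 with all), and 5 to 8 and 960 to 1809 in knockout (8 and 1709 with all). Changes of sign outside those fits were small. In endothelium Jag2 was -0.0184 with DESeq2 size factors, -0.0182 with DESeq2 and -0.00427 with voom. With total counts, which put the median log2 fold change of all genes at 0.33 in endothelium and 0.13 in podocytes (0.01 and 0.02 with TMM), Notch4 was 0.0224 and Jag2 0.0236 in podocytes, and the interaction was 0.19 for Notch1, 0.0532 for Bmx and 0.15 for Emcn. With at least 5 CPM the interaction was 0.0723 for Notch1 and 0.0332 for Emcn. With 1 library left out, the endothelial genotype log2 fold change ran from -3.24 to 0.36 for Sox17, -0.20 to 1.04 for Dll4, -0.10 to 0.90 for Hey1, -0.0276 to 0.54 for Notch1, -0.92 to 0.39 for Notch4, -0.29 to 0.38 for Jag1, -0.45 to 0.39 for Jag2 and -0.21 to 0.80 for Bmx. In podocytes it ran from -0.88 to 0.0845 for Dll4, -0.0339 to 0.93 for Efnb2, -0.12 to 0.91 for Notch1, -0.72 to 0.57 for Notch4, -0.18 to 0.0246 for Jag2 and -0.42 to 1.18 for Bmx. The interaction ran from -0.49 to 0.44 for Efnb2, -0.66 to 0.40 for Notch1, -0.87 to 0.49 for Notch4, -0.36 to 0.48 for Jag2, -0.80 to 0.81 for Bmx and -0.67 to 0.37 for Emcn, and Jag1 between cell types in knockout from -0.34 to 0.52. The cause of these changes was not tested. The replicate numbers are not stated to pair the libraries, and same-numbered deviations correlated at 0.188, 0.157, -0.129 and 0.111 over the pairs of groups. With the replicate block, 0 of the 9 genes passed by genotype or interaction and 8 of the 9 between cell types in each genotype, with 1, 1, 0, 1831 and 2241 of all genes. With podocyte numbers swapped in the block, an alternative added after the data were seen, 8 of the 9 and 1357 of all genes passed in wild type.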
